A study of Arabidopsis thaliana with 9 samples.

Results

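Seedlings of Arabidopsis thaliana taken after 2 d on FPX were compared with seedlings taken before transfer to it. The comparison used 6 of the 9 arrays of the series, 3 in each group, and they were chosen by their labels. Both groups were wild-type whole seedlings raised on MS medium, a salt medium for plant culture. The 0 d group was collected at 4 d of age and had received no FPX. The 2 d group was moved at 4 d of age to MS medium with 45 µM FPX and stayed there for 2 d. FPX (fipexide) is a small molecule that the series title names as an inducer of callus and of shoot regeneration. The 2 d seedlings were also older, no untreated seedlings of that age were analysed here, and the 0 d arrays carry raw data shared with another series. Treatment, age and array set therefore cannot be told apart in any value below. Whether the 3 arrays of a group stand for 3 separately grown cultures is not stated, and p-values here measure only their spread, which may be technical.

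Callus is a mass of dividing cells that plant tissue forms under hormone treatment or after wounding, and its growth starts from cells that re-enter the cell cycle. Auxin, the hormone most used to start it, acts through the removal of Aux/IAA repressor proteins, and among the transcripts that auxin raises are those of the repressors themselves, of the GH3 enzymes that conjugate auxin to amino acids, and of LBD transcription factors. Green seedlings of this age carry, beside that, large amounts of transcript for chloroplasts, which are read partly from the nuclear genome and partly from the small genome of the plastid itself.

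Each value is an array signal, the brightness of a probe set that matches a transcript, on a linear scale. Signals of different probe sets do not compare transcript abundance, so levels were compared only within a probe set. Differences are given as log2(signal + 16) at 2 d minus the same at 0 d, with the standard error (SE) of the limma fit and a p-value adjusted over all 11228 probe sets, and "rose" or "fell" means an adjusted p under 0.05. Since 16 is added to every signal, the fold change of dim probe sets is understated. Arrays of the same group correlated at r = 0.988 to 0.991 over all probe sets, and arrays of different groups at 0.881 to 0.893. The median SD of log2 values was 0.12 at 0 d and 0.10 at 2 d. The deposited table was a selected one: in a one-way comparison of the 3 groups of the series, 11205 of its 11228 probe sets (99.8%) had a p under 0.04. Counts below are thus counts within a selected table and not shares of the genome, and a gene missing from a list may have been left out because it did not differ.

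In all, 8160 of 11228 probe sets changed (72.7%), of which 5005 rose (44.6%) and 3155 fell (28.1%). At least a 2-fold change was seen in 1037 that rose (9.24%) and 555 that fell (4.94%). The signals of the groups did not overlap for 8567 probe sets (76.3%), with 5183 higher (46.2%) and 3384 lower (30.1%) at 2 d. The median change over all probe sets was 0.17 and moved with the scaling, as it was −0.01 with array medians set to 0, 0.03 after quantile normalization and 0.27 with arrays scaled on the hybridization controls. The share of rises among changes was 61.3% as deposited, 46.3%, 51.1% and 70.1% in these other scalings, in the same order, so a small rise or fall of a single gene depends on the scale. Changes from 2 to 3 on the log2 scale were 93 rises and 96 falls, and changes of 3 or more were 15 rises and 22 falls. Added RNA controls also differed between the groups, 7 hybridization controls by a mean of −0.10 and 5 poly(A) controls by −0.37. The part of these differences in the results was not tested.

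**Figure D1:**
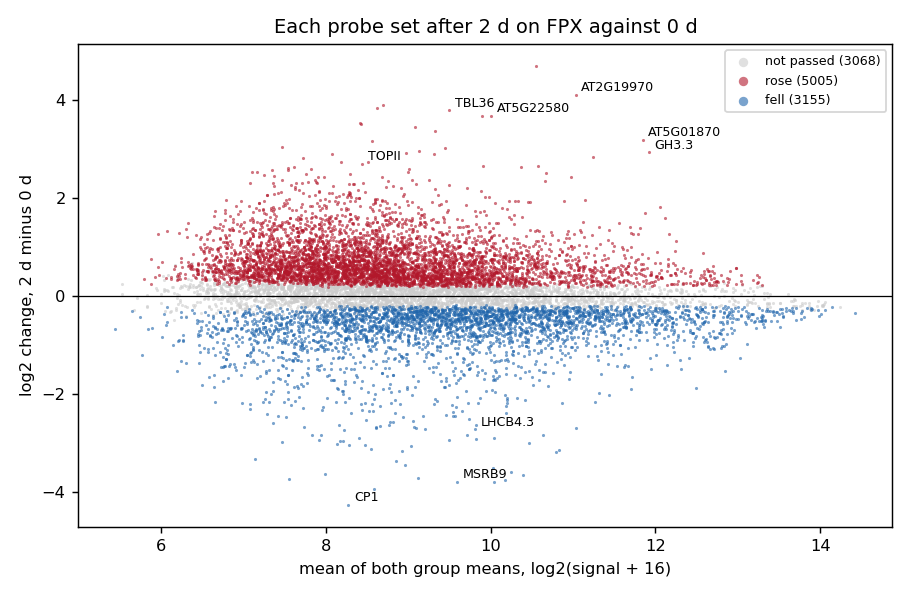
Change of each of the 11228 probe sets (log2(signal + 16) at 2 d minus 0 d, vertical axis) against the mean of the group means on the same scale (horizontal axis). The 5005 that rose and the 3155 that fell lie above and below 0, and the largest changes, such as those of AT2G19970, TBL36 and CP1, stand apart from the bulk.

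Of the 11228 probe sets, 5981 matched exactly 1 gene, and for 5072 of these the symbol of the gene in the RefSeq gene table is its locus code. The table lists further names for some of them, which are given below where used. Of the 5072, 2325 rose (45.8%) and 1284 fell (25.3%), beside 363 (39.9%) and 322 (35.4%) of the 909 probe sets whose gene has a symbol. At least 2-fold changes were 486 rises (9.58%) and 207 falls (4.08%) among the locus codes, and 88 (9.68%) and 62 (6.82%) among the symbols. Among the 20 largest rises of probe sets with 1 gene and a high enough signal, 15 belonged to locus codes, and among the 20 largest falls 14 did. The rule for these genes took only probe sets whose groups did not overlap. Separation of the groups, stated below for several of them, is thus no further result. Genes described below as outside the lists were chosen after their values had been seen and stand only for themselves, as do SAG29, ALPHA-VPE, LPR1, ASF1B, BGLU45, BGLU46, BZIP60, Hop1, Hop2 and Hop3.

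AT2G19970 had the largest rise among probe sets with a gene. Its signals were 428, 578 and 466 at 0 d and 8052, 8681 and 9184 at 2 d. The rise was 4.10 ± 0.11 on the log2 scale (SE), or 17.2-fold, with a limma adjusted p of 1.55e-09. No array of the 0 d group came near those of the 2 d group. AT5G22580 had signals of 265, 298 and 255 at 0 d and 3797, 3927 and 3295 at 2 d, a change of 3.67 ± 0.10 (limma adjusted p = 1.55e-09). The signals of AT4G22490 were 152, 123 and 164 at 0 d and 2377, 1474 and 1504 at 2 d (3.44 ± 0.17). In both, every array at 2 d was above every array at 0 d, which the rule of selection required. AT5G01870 had array signals of 1208, 873 and 1574 at 0 d and 10710.4, 11089.5 and 11057 at 2 d (3.19 ± 0.18). AT2G04480 was dim before transfer, at 36.7, 46.4 and 54.6 at 0 d and 464, 552 and 467 at 2 d, and rose by 3.05. Its values at 0 d are close to the added 16, so its fold is the more understated.

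Other locus codes among the 20 largest rises were AT4G38410 (2.92), AT3G58550 (2.89), AT5G48940 (2.73), AT1G67750 (2.65), AT4G13210 (2.60), AT2G28790 (2.44), AT5G48360 (2.42), AT3G63240 (2.37) and AT1G56680 (2.36). Of these, AT1G67750 had a mean of 596 ± 75.9 (SD, n = 3) at 0 d and 3805 ± 239.8 at 2 d, and AT2G28790 had 852 ± 29.7 and 4692 ± 189.6. The gene table gives AT5G64120 the further name PRX71, peroxidase 71, a class III peroxidase, which are secreted enzymes that work on the wall. Its signals were 657, 748 and 596 at 0 d and 3617, 3231 and 4829 at 2 d, a rise of 2.50 ± 0.15. All 3 treated arrays lay well above the untreated ones.

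Among genes with a symbol the largest rise was that of TBL36 (AT3G54260), of a family known for adding acetyl groups to wall polysaccharides. Its signals were 184, 178 and 171 at 0 d and 2583, 3185 and 2303 at 2 d, a rise of 3.79 ± 0.11 (limma adjusted p = 1.55e-09). The groups were far apart, although the treated arrays differed among themselves by more than the untreated ones. The other measured members of that family did not follow it, with TBL38 at −0.99 and TBL37 at −0.58. Of 8, 3 did not pass, and 1 rose and 4 fell, beside 44.6% and 28.1% of all probe sets. The counts were 1 and 5 with array medians set to 0, and 1 and 2 with arrays scaled on the hybridization controls. ATLP-1 (AT1G18250), a thaumatin-like protein gene, had signals of 494, 498 and 556 at 0 d and 3165, 3303 and 3420.4 at 2 d (2.64 ± 0.08). The sugar transporter gene SAG29 (2.30), the vacuolar processing protease gene ALPHA-VPE (2.24) and LPR1 (2.45), which encodes a multicopper oxidase known from root growth under low phosphate, were other rises above 2.

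The largest fall was that of CP1 (AT4G36880), which encodes a papain-like cysteine protease. Its signals were 1396, 921 and 1759 at 0 d and 51.3, 51.5 and 58.4 at 2 d, a change of −4.25 ± 0.32 (limma adjusted p = 7.45e-07), so a bright transcript was reduced to near the lower end of the scale on all 3 treated arrays. The locus code AT3G22620 had signals of 3832, 4158 and 3721 at 0 d and 279, 217 and 309 at 2 d (−3.80 ± 0.14). MSRB9 (AT4G21850), a methionine sulfoxide reductase gene whose enzyme repairs oxidized methionine, had 2969, 2724 and 2753 at 0 d and 226, 126 and 236 at 2 d (−3.79 ± 0.22). In each of these the groups were separated by several times the spread within either.

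Locus codes made up most of the other large falls. AT1G52060 had signals of 1435, 1506 and 1412 at 0 d and 166, 104 and 117 at 2 d (−3.36 ± 0.13), and AT2G48130 (−3.16), AT4G36610 (−3.11), AT1G19020 (−3.06), AT1G19530 (−3.04) and AT4G17280 (−2.92) each fell at least as far as BGLU28 (−2.90), a beta-glucosidase gene. Further falls within the 20 were those of AT2G29500 (−2.73), AT4G17215 (−2.66), AT1G73120 (−2.62), AT1G52050 (−2.52), AT5G40690 (−2.50), AT4G30450 (−2.47) and AT5G51440 (−2.44). Several were bright before transfer. AT1G73120 had a mean of 2237 ± 308 (SD, n = 3) at 0 d and 348 ± 25.8 at 2 d, and AT5G40690 had 2016 ± 101 and 345 ± 39.5. The symbols in this set were CP1, MSRB9, BGLU28, XTH18, XTH16 and LHCB4.3, the last with signals of 2060.3, 2298 and 2418 at 0 d and 356, 243 and 416 at 2 d.

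**Figure D2:**
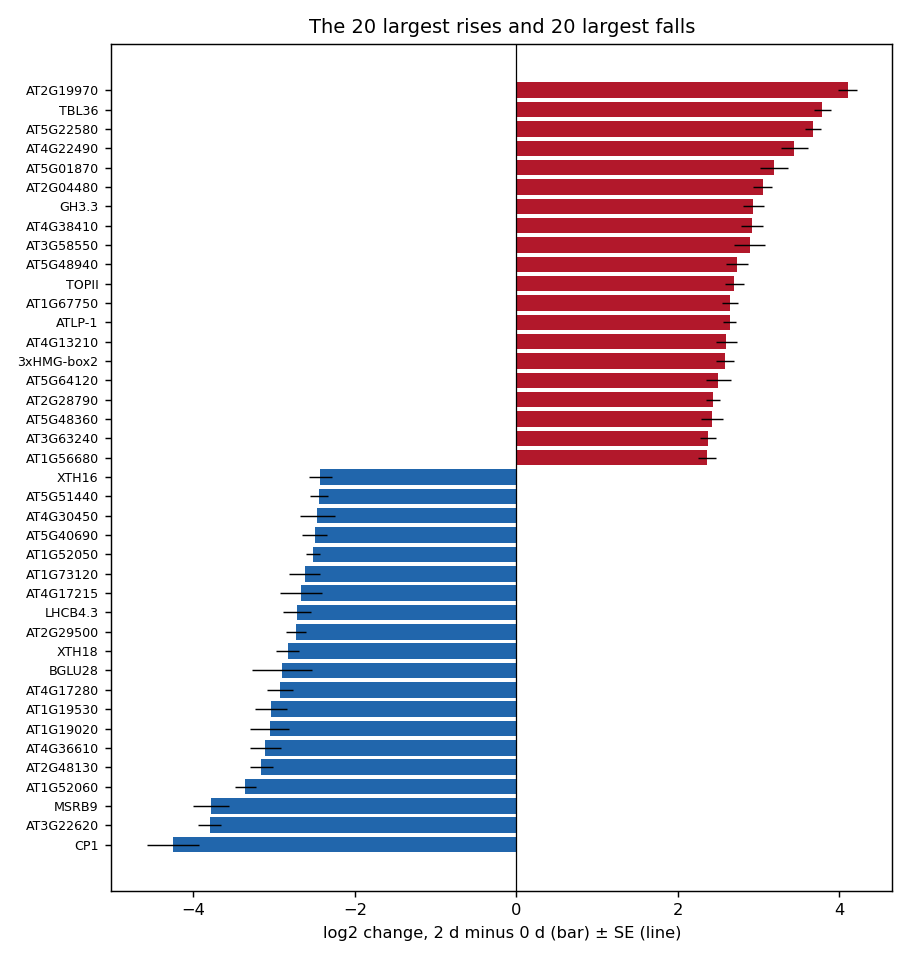
Log2 change with its SE for the 20 genes that rose most and the 20 that fell most, taken from probe sets of 1 gene that passed the test, did not overlap between groups and were bright enough in the higher group. Probe sets with identifiers ending in _x_at, _s_at or _f_at were left out. Rises run from 2.36 (AT1G56680) to 4.10 (AT2G19970) and falls from −2.43 (XTH16) to −4.25 (CP1), and 15 of the rises and 14 of the falls are locus codes.

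Auxin response transcripts were higher after 2 d on FPX. Of 8 measured genes of the list 7 rose and 0 fell, against 44.6% of all probe sets that rose, and the median change was 1.88 beside 0.17 over all. GH3.3 (AT2G23170), one of the enzymes that conjugate auxin, had signals of 1509, 1115 and 1567 at 0 d and 11009.6, 10161 and 10889.9 at 2 d, all 3 treated arrays far above the untreated ones. The same enzyme family gave WES1, also known as GH3.5, with signals of 2432, 2318 and 2008 at 0 d and 8109, 8625 and 7284 at 2 d (1.82 ± 0.10, limma adjusted p = 6.54e-08). GH3.17 had a smaller rise of 0.68. The members of the family thus rose by unequal amounts.

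Among Aux/IAA repressor genes, IAA30 (AT3G62100) had signals of 59.8, 70.1 and 51.3 at 0 d and 473, 449 and 385 at 2 d, a rise of 2.57 ± 0.14. IAA29 had 324, 367 and 304 at 0 d and 924, 824 and 812 at 2 d (1.32 ± 0.11). IAA18 was at 841, 864 and 823 at 0 d and 744, 838 and 804 at 2 d, a difference of −0.08 that did not pass (limma adjusted p = 0.39) and that became a fall with array medians set to 0. Both IAA30 and IAA29 separated the groups fully, and IAA18 did not. The LBD factor gene LBD16 (AT2G42430), known from the founding of lateral roots and from callus, had signals of 139, 173 and 121 at 0 d and 597, 626 and 565 at 2 d (1.94 ± 0.12). The homeodomain gene HAT2 (AT5G47370), an early auxin response gene, had 666, 679 and 589 at 0 d and 2622, 2483 and 2399 at 2 d (1.93 ± 0.09). The 7 rises held in all 3 other scalings, with list medians of 1.70, 1.77 and 1.98 for array medians set to 0, quantile normalization and the hybridization controls.

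Genes that make or move auxin were few in the table. Of 3 measured, 0 rose and 2 fell, beside 44.6% and 28.1% of all probe sets. The falls were YUC2 (−0.66), which makes auxin, and IAGLU (−0.50), which links it to glucose. The kinase gene WAG2, which acts on auxin exporters, was at −0.13 and did not pass, though it fell after quantile normalization (−0.4). No member of the cytokinin list and none of the list of callus and stem cell regulators was measured under a name, so no value is given for either. Members may lie among the 5025 probe sets with no listed gene or the 222 with several. Of 2 measured genes of ethylene signalling neither passed, EIN3 at −0.04 and RTE1 at 0.16. With arrays scaled on the hybridization controls RTE1 rose (0.26). Of 4 for gibberellin and brassinosteroid only SLY1 fell (−0.29), an F-box gene that removes gibberellin repressors, and SLY1 did not pass with arrays scaled on the hybridization controls. Its paralog SLY2, outside the list, had signals of 54.7, 64.6 and 85.7 at 0 d and 323, 329 and 393 at 2 d and rose by 2.12. The 2 paralogs thus moved in opposite directions on the deposited scale.

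Genes of DNA replication were higher at 2 d. All 4 measured genes rose, against 44.6% of all probe sets, with a median of 1.14. PRL (AT4G02060), the MCM7 subunit of the helicase that opens DNA, had signals of 398, 279 and 377 at 0 d and 1016, 1190.3 and 1019 at 2 d (1.58 ± 0.13, limma adjusted p = 1.43e-06). ICU2 (AT5G67100), the catalytic subunit of DNA polymerase alpha, had 57.0, 57.7 and 98.5 at 0 d and 194, 197 and 197 at 2 d (1.32 ± 0.16). One array of the 0 d group was above the other two for ICU2, and still below every treated array. The primase subunit gene POLA3 rose by 0.95 and PSF2, of the GINS complex that travels with the helicase, by 0.79. Other genes of DNA synthesis and repair, outside the list, were POLD3 (1.57), a subunit of DNA polymerase delta, UNG (1.74), which removes uracil from DNA, and TOP3A (0.89), a topoisomerase. Of the 4 list members 2 were left when the dimmest probe sets were taken out.

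Genes of mitosis and cytokinesis were also higher. Of 9 measured, 8 rose and 0 fell, against 44.6% and 28.1% of all probe sets, with a median of 1.58. TOPII (AT3G23890), topoisomerase II, which untangles chromosomes, had signals of 116, 120.3 and 124 at 0 d and 959, 882 and 773 at 2 d. The chromosome-binding genes 3xHMG-box2 and 3xHMG-box1 rose by 2.58 and 2.30, the former with signals of 168, 192 and 228 at 0 d and 1210.3, 1301 and 1226 at 2 d. The histone variant gene HTR12 (AT1G01370), which marks centromeres, had 66.1, 68.8 and 62.0 at 0 d and 236, 255 and 295 at 2 d (1.76 ± 0.10). Each of these was low on all 3 arrays before transfer and higher on all 3 afterwards.

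The 3 Aurora kinases, which act on chromosome alignment and division plane, rose by unequal amounts. AUR2 had signals of 237, 207 and 270.2 at 0 d and 661, 774 and 795 at 2 d (1.58 ± 0.11), AUR1 rose by 1.26 and AUR3 by 0.54. The spindle checkpoint gene BUB3.1 rose by 1.32. SIM, the one member that did not pass (−0.25, limma adjusted p = 0.0577), encodes an inhibitor of cyclin-dependent kinases known from trichomes, and it fell with array medians set to 0 and after quantile normalization, in both of which AUR3 did not pass. Genes of cell plate formation outside the list were KINESIN-12B, a motor of the phragmoplast, with signals of 56.6, 64.5 and 43.5 at 0 d and 245, 229 and 236 at 2 d (1.85 ± 0.13), and the kinase gene FU (1.77), which is known from the same structure. Haspin (1.37), a kinase of histone H3 in mitosis, and HBT (0.70), a subunit of the complex that ends mitosis, rose too.

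**Figure D3:**
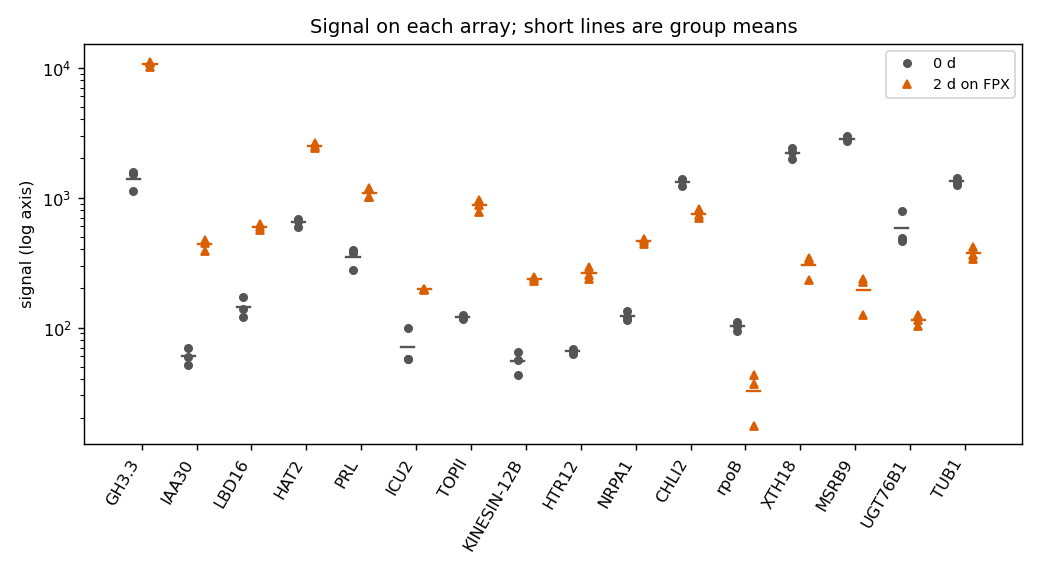
Signal of each array (log axis) for 16 genes at 0 d (grey circles) and after 2 d on FPX (orange triangles), with group means as short lines. Auxin, division and RNA polymerase genes on the left are higher on all 3 treated arrays, and CHLI2, rpoB, XTH18, MSRB9, UGT76B1 and TUB1 on the right are lower on all 3.

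Histone genes rose with them in part. Of 7 measured, 6 rose (44.6% of all probe sets did) and 0 fell, with a median of 1.14. Of the histone H2B genes, HTB2 had signals of 302, 388 and 315 at 0 d and 984, 1054 and 895 at 2 d (1.51 ± 0.11) and HTB1 rose by 1.14, while HTB4 rose by 0.36 and HTB11 was at 0.19 and did not pass, but did so without 0 d replicate 3 (0.27). The linker histone gene HIS1-3 (AT2G18050), known from drought response, had 124, 129 and 87.4 at 0 d and 413, 674 and 326 at 2 d (1.86 ± 0.22), and HON4, a gene of a linker histone fold, rose by 0.26, with no pass without FPX 2 d replicate 3 (0.23). With array medians set to 0 the count of rises was 4, and after quantile normalization or on the hybridization controls it was 7. All 4 measured chromatin remodelling genes of the CHR series rose, CHR24 (1.38), CHR17 (1.37), CHR23 (1.36) and CHR18 (0.52). ASF1B, a chaperone that hands histones to new DNA, rose by 1.0.

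Subunits of the nuclear RNA polymerases were higher as a group. Of 12 measured, 11 rose and 0 fell, beside 44.6% and 28.1% of all probe sets, with a median of 0.74, and the count was 11 in each of the 3 other scalings. RNA polymerase I, which transcribes ribosomal RNA, had the largest rise: its largest subunit gene NRPA1 (AT3G57660) had signals of 133, 120.4 and 113 at 0 d and 464, 441 and 479 at 2 d (1.79 ± 0.10, limma adjusted p = 1.09e-07), and NRPA2 rose by 1.23. Of RNA polymerase III, which makes transfer RNA, NRPC2 rose by 0.98 and NRPC1 by 0.87. The 6 measured subunits under RNA polymerase II names rose by less, from 0.49 (NRPB6B) to 0.75 (NRPB9B). NRPE7 rose by 1.01 and NRPD7 was at −0.09 and did not pass, though it fell without FPX 2 d replicate 3 (−0.31), and both are subunits of the plant polymerases of gene silencing.

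The list of ribosome biogenesis and RNA polymerase I holds 5 of these subunits beside other factors, and all 11 of its measured members rose, beside 44.6% of all probe sets, with a median of 0.98. RBL (AT3G55510), known as REBELOTE, had signals of 122, 210.3 and 135 at 0 d and 629, 683 and 649 at 2 d (2.00 ± 0.15). RRP41L (1.52) and RRP41 (0.61) belong to the exosome or its kin, which trims RNA. The gene table gives further names to 2 members with locus codes: AT5G14520 is PES, or PESCADILLO, known from the large ribosomal subunit (1.24), and AT5G41190 is NOB1, known from the small one (0.95). DIM1A, a methyltransferase of ribosomal RNA, had the smallest rise, 0.31, and with array medians set to 0 and after quantile normalization 10 members rose in place of 11. Genes of the same work outside the list were YAO (1.37), IMP4 (0.95), AT5G52820, which the table calls NOTCHLESS (1.24), and AT1G13030, coilin (1.40), the scaffold of the Cajal body of the nucleus. AT1G79150, a locus code, was measured by 2 probe sets that both rose, by 2.09 and 1.98.

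Single genes outside the lists that rose were THO1 (0.99) and TEX1 (1.01), which encode parts of the complex that loads messenger RNA for export, and NUP155 (0.94) and NUP1 (0.87), which encode parts of the nuclear pore. Other members of these complexes were not counted. In TEX1 the signals were 258, 226 and 215 at 0 d and 519.8, 499 and 433 at 2 d. All 3 treated arrays were above all 3 untreated ones.

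Transcripts read from the plastid genome were lower after 2 d. Of 58 measured, 42 fell and 1 rose, against 28.1% and 44.6% of all probe sets, and the median change was −0.49. The falls were 48 with array medians set to 0, 31 after quantile normalization and 35 on the hybridization controls. How these transcripts, most of which lack the poly(A) tail of nuclear messengers, were primed for labelling is not stated, and the added poly(A) controls changed by a mean of −0.37 on the log2 scale, so the part of labelling was not tested. Fewer plastids or cells with plastids and less RNA in each cannot be told apart in whole seedlings, and this holds for every tissue-bound transcript below.

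The classes of plastid genes fell by unequal amounts. All 3 measured subunits of the plastid-encoded RNA polymerase fell in every scaling run, with a median of −1.11 on the deposited scale. For rpoB the signals were 94.0, 103 and 111 at 0 d and 17.4, 43.0 and 37.0 at 2 d (−1.33 ± 0.19), for rpoC1 1699, 1940.2 and 1682 at 0 d and 1071, 606 and 821 at 2 d (−1.11 ± 0.16), and rpoC2 changed by −1.01. The rpoB probe set is dim, and one treated array was at about the level of the added 16. All 13 measured ribosomal protein genes of the plastid fell, with a median of −0.74, from rpl20 (−1.33) and rps16 (−1.07) to rps3 (−0.39), and 13, 11 and 12 fell with array medians set to 0, quantile normalization and the hybridization controls. For rpl20 the signals were 1115, 1751 and 969.5 at 0 d and 567, 370.3 and 531 at 2 d, with no overlap.

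Of 7 genes of the NDH complex, which cycles electrons around photosystem I, 6 fell, with ndhG at −1.07 and ndhE at −0.92, while ndhJ was at 0.07 and did not pass. Photosystem II genes had a median of −0.07, as did the cytochrome b6f genes. Of 12 photosystem II genes measured, 4 fell, 1 rose and 7 did not pass, beside 28.1% of all probe sets that fell and 44.6% that rose. The rise was that of psbK, with signals of 7284, 7479 and 7389 at 0 d and 8649.7, 8274 and 9267 at 2 d (0.24 ± 0.09). It did not pass with array medians set to 0, or without 0 d replicate 1 (0.23), FPX 2 d replicate 1 (0.25) or FPX 2 d replicate 3 (0.20). psbD, psbC, psbZ, psbI and psbT had differences of 0.09, −0.01, 0.15, 0.13 and −0.03. After quantile normalization psbI rose (0.28). The falls were psbB (−0.56), psbH (−0.55), psbF (−0.26) and psbE (−0.22). The latter pair did not pass after quantile normalization or on the hybridization controls, psbF not without 0 d replicate 1 (−0.20), FPX 2 d replicate 1 (−0.26) or FPX 2 d replicate 3 (−0.20), and psbE not without 0 d replicate 1 (−0.17), 0 d replicate 2 (−0.24), FPX 2 d replicate 1 (−0.25), FPX 2 d replicate 2 (−0.19) or FPX 2 d replicate 3 (−0.22). In photosystem I, psaC changed by −0.83 and the reaction centre genes psaA and psaB were at −0.04 and −0.09 and did not pass. With array medians set to 0 psaB fell (−0.27).

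The large subunit of the carbon-fixing enzyme rubisco, rbcL (ArthCp030), had signals of 2473, 2293 and 2240.0 at 0 d and 1304, 1332 and 1352 at 2 d (−0.80 ± 0.08). The 6 ATP synthase genes gave 4 falls, the largest those of atpH (−0.73) and atpF (−0.55). The other 2, atpA and atpB, did not pass (−0.16 and −0.21), though atpB fell without 0 d replicate 3 (−0.28). With array medians set to 0 both atpA and atpB fell (−0.34 and −0.39). Of 4 cytochrome b6f genes petA (−0.42) and petB (−0.30) fell, and petL and petG did not pass, both at 0.15. After quantile normalization none of these 4 passed. ycf3, an assembly factor of photosystem I, changed by −0.93, and clpP, a protease subunit, by −0.67.

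**Figure D4:**
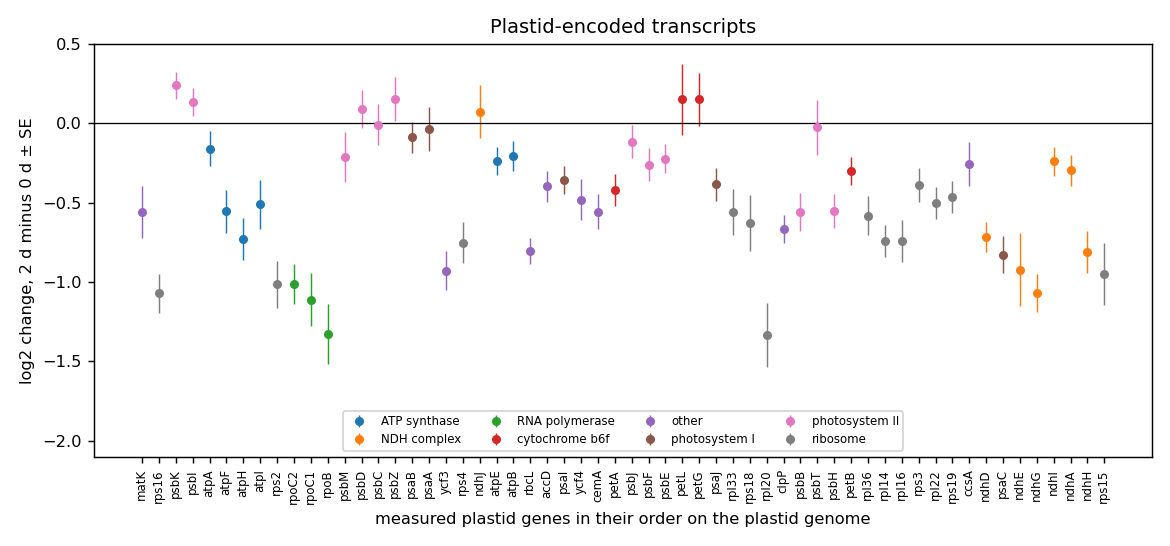
Log2 change (2 d minus 0 d, vertical axis) with its SE for the 58 measured plastid-encoded genes, in their order on the plastid genome of the TAIR10.1 assembly and coloured by class. RNA polymerase and ribosomal protein genes lie below 0 throughout, from −0.39 (rps3) to −1.33, and most photosystem II genes lie near 0.

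Nuclear genes of the chlorophyll and heme list were lower. All 8 measured genes fell, with a median of −0.68, against 28.1% of all probe sets that fell, and 8, 7 and 6 fell with array medians set to 0, quantile normalization and the hybridization controls. PORB, the light-dependent reductase that makes chlorophyllide, had signals of 6936, 6056 and 6043 at 0 d and 3342, 3207 and 3016 at 2 d (−0.99 ± 0.11). CHLI2, a subunit of magnesium chelatase, had 1363, 1220.2 and 1384 at 0 d and 739.7, 696 and 821 at 2 d (−0.80 ± 0.09). HEME1 (−0.75), HEMB1 (−0.73) and HEME2 (−0.63) act on the shared path to both pigments, and GSA1 (−0.44) at its start. NOL, a list member that is not an enzyme of synthesis, changed by −0.41, with overlap between the groups. CHLM, a methyltransferase after the magnesium step, had the smallest change, −0.29, and did not pass after quantile normalization, on the hybridization controls, or without 0 d replicate 1 (−0.30), 0 d replicate 2 (−0.30), 0 d replicate 3 (−0.26), FPX 2 d replicate 1 (−0.23) or FPX 2 d replicate 2 (−0.30).

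Nuclear antenna and photosystem genes changed little apart from 1. Of the 9 nuclear members of the light harvesting list, LHCB4.3, an isoform of a minor antenna protein, changed by −2.71, whereas its paralogs LHCB4.2 and LHCB4.1 changed by −0.40 and −0.26. LHCB4.1 had signals of 17734, 17483 and 14793 at 0 d and 13771, 14696 and 13214 at 2 d, and it did not pass without 0 d replicate 1 (−0.21), 0 d replicate 2 (−0.22), FPX 2 d replicate 1 (−0.25) or FPX 2 d replicate 3 (−0.22). After quantile normalization LHCB4.1 stood at 0.0024, and neither LHCB4.2 nor PSB27 passed. PSB27, a repair factor of photosystem II, changed by −0.39, and PSBY (−0.21), PSBW (−0.18), PSAN (−0.13), PSAE-1 (−0.08) and HCF101 (0.06) did not pass. With array medians set to 0, PSBY (−0.39), PSBW (−0.36) and PSAN (−0.31) fell. With the plastid-encoded members the list had 13 falls among 24, beside 28.1% of all probe sets, with a median of −0.24. The falls were 17 with array medians set to 0, 5 after quantile normalization and 9 on the hybridization controls. The medians were −0.42, −0.02 and −0.14 in the same order. Of 6 genes of carbon fixation and photorespiration 3 fell, rbcL, SBPASE (−0.42) and LrgB (−0.79), a carrier of photorespiratory compounds in the plastid envelope, and with array medians set to 0 all 6 did.

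Transcripts of wall-loosening proteins moved both ways. Of 17 measured expansins and xyloglucan enzymes 10 fell and 5 rose, beside 28.1% and 44.6% of all probe sets, with a median of −0.47. XTH enzymes cut and rejoin xyloglucan, and 3 of the 6 fell more than any expansin. XTH18 had signals of 1990.3, 2258 and 2411 at 0 d and 329.8, 232 and 342 at 2 d (−2.83 ± 0.14), XTH16 1465, 1454 and 1925 at 0 d and 345, 241 and 275 at 2 d (−2.43 ± 0.14) and XTH33 398, 373 and 406 at 0 d and 87.0, 50.1 and 124 at 2 d (−2.05 ± 0.23). XTH20 rose by 0.89, and the 2 other measured members differed by 0.35 or less in size.

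Expansins loosen the wall without cutting it. Of 6 alpha-expansins EXPA4 (1.22), EXPA20 (1.20) and EXPA15 (0.35) rose, and EXPA8 (−1.0), EXPA16 (−0.94) and EXPA9 (−0.47) fell. EXPA15 did not pass with array medians set to 0, after quantile normalization, or without 0 d replicate 2 (0.27) or FPX 2 d replicate 3 (0.30). Of the beta-expansins EXPB3 had signals of 306, 372 and 337 at 0 d and 916, 859 and 1149.7 at 2 d (1.48 ± 0.12), and EXPB1 208, 184 and 277 at 0 d and 71.3, 102 and 65.0 at 2 d (−1.33 ± 0.18). The groups separated in both, in opposite directions. The expansin-like genes EXLA1 and EXLA2 changed by −1.36 and −1.27.

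Of 10 genes of wall synthesis and assembly 2 rose and 6 fell, beside 44.6% and 28.1% of all probe sets. The rises were those of TBL36 and GH9B13 (AT4G02290), of the endoglucanase family, with signals of 278, 257 and 225 at 0 d and 1211, 1353 and 1536 at 2 d (2.36 ± 0.11). Of 5 measured genes of that family 4 rose and 1 fell, in all scalings run, with GH9B8 at 0.76 and GH9B7 at −0.47. Falls were those of sks15 (−2.22) and sks16 (−1.08), relatives of the root growth gene SKU5, whose own difference of 0.11 did not pass, of CSLC04 (−0.72), which makes the xyloglucan backbone, of COB (−0.67), which orients cell expansion, and of CSLD2 (−0.49). After quantile normalization SKU5 rose (0.26). BGLU45 (−1.42) and BGLU46 (−1.12), glucosidases that act on lignin precursors, fell as well, while BGLU33 rose by 1.89.

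Genes of detoxification and conjugation were mostly lower. Of 17 measured, 11 fell and 2 rose, against 28.1% and 44.6% of all probe sets, with a median of −0.55, and 13, 12 and 9 fell with array medians set to 0, quantile normalization and the hybridization controls. Of the glycosyltransferases UGT76B1, known to glycosylate the defence compound isoleucic acid and salicylic acid, had signals of 492, 789 and 466 at 0 d and 115, 126 and 102 at 2 d (−2.17 ± 0.17). One untreated array was higher than the other two. UGT73B5 changed by −1.40, UGT73B1 by −1.07 and UGT73B4 by −0.80. Over all 22 measured UGT genes 12 fell and 4 rose, and the largest rise was that of UGT71C3, with signals of 98.3, 98.3 and 139 at 0 d and 259, 317 and 322 at 2 d (1.31 ± 0.17).

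Of 7 tau-class glutathione transferases 4 fell and 0 rose, beside 28.1% and 44.6% of all probe sets. GSTU26 was at −1.24 and GSTU27 at −0.50, while GSTU25, GSTU20 and GSTU16 did not pass (−0.09, 0.08 and −0.07). With array medians set to 0 GSTU16 fell (−0.25). AER, a reductase of reactive alkenals, had signals of 1514, 1852 and 1653 at 0 d and 606, 523 and 529.6 at 2 d (−1.57 ± 0.10). Methionine sulfoxide reductases that fell, outside the lists, were MSRB9, MSRB6 (−1.92) and MSRB5 (−1.55). For MSRB6 the signals were 1608, 1404 and 1805 at 0 d and 403, 353 and 481 at 2 d. SUFE2 (−2.20), an activator of sulfur transfer for iron-sulfur clusters, and APS3 (−0.83), which starts sulfate assimilation, were the 2 measured genes of the nutrient list. CYP71B cytochrome P450 genes went the other way on the deposited scale, where 5 of 8 rose and 2 fell, with CYP71B26 at 1.45, but 3 rose and 3 fell with array medians set to 0 or after quantile normalization.

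Of 5 genes with calcium or calmodulin in a name that the gene table gives, 3 fell and 1 rose, beside 28.1% and 44.6% of all probe sets. The falls were those of the calmodulin-like genes CML38, with signals of 318, 367 and 263 at 0 d and 54.1, 39.6 and 86.7 at 2 d (−2.16 ± 0.20), CML42 (−1.24) and CML23 (−0.94). AT1G16020, listed as CCZ1a, rose by 0.96, and CaS, listed as a calcium sensing receptor, was at 0.01 and did not pass. Of 2 measured genes of the heat shock and folding list 1 fell, AT5G48570, a peptidyl-prolyl isomerase known from heat response. The gene table calls it ROF2 or FKBP65, and it had 609, 617 and 633 at 0 d and 167, 115 and 125 at 2 d (−2.09 ± 0.15). The other, ATCRT1, was at −0.12 and did not pass. With array medians set to 0 and after quantile normalization both fell. BZIP60, a factor of the unfolded protein response of the endoplasmic reticulum, changed by −1.37. The Hsp90 co-chaperone genes split: Hop3 changed by −1.04, while Hop1 rose by 1.21 and Hop2 by 0.49. Of 4 genes of abscisic acid and drought response EEL (1.61) and DI21 (0.67) rose and LTI30 (−1.24) and COR47 (−0.41) fell, so the list had no common direction. COR47 did not pass after quantile normalization, on the hybridization controls, or without 0 d replicate 1 (−0.36), 0 d replicate 2 (−0.29), FPX 2 d replicate 1 (−0.41) or FPX 2 d replicate 3 (−0.28).

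Smaller families are read against the 28.1% of all probe sets that fell and the 44.6% that rose. Among ATG8 genes, whose proteins coat autophagosomes, 4 of 6 fell and 2 rose. ATG8H (−1.18) and ATG8E (−1.04) fell most, and ATG8G rose, with signals of 216, 220.5 and 192 at 0 d and 352, 453 and 343 at 2 d (0.81 ± 0.11). The second rise, ATG8B (0.31), did not pass with array medians set to 0, after quantile normalization, or without 0 d replicate 3 (0.27) or FPX 2 d replicate 2 (0.18). Tetraspanins, membrane proteins of signalling and contact, fell in 5 of 6 cases, led by TET8 (−1.57) and TET2 (−0.77), and TET10 was the exception (0.31), which did not pass with array medians set to 0. Of 10 genes with names that start with PRA 8 fell and 2 rose, and after quantile normalization 8 fell and 0 rose. The falls were all of PRA1 genes, whose proteins act in vesicle traffic, led by PRA1.B6 (−1.33). The rises were those of PRA1.H (0.51) and of PRAF1 (0.50), which belongs to an unrelated family and did not pass with array medians set to 0, after quantile normalization, or without 0 d replicate 3 (0.34).

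Most genes of ubiquitin removal rose. Of 9 measured UBP proteases 8 rose and 1 fell, against 44.6% and 28.1% of all probe sets, with a median of 0.55, and 8, 7 and 8 rose with array medians set to 0, quantile normalization and the hybridization controls. The largest rise was that of UBP23, with signals of 549, 519 and 574 at 0 d and 1219, 1225 and 1141 at 2 d (1.10 ± 0.09), and the fall was that of UBP22 (−0.27), which did not pass on the hybridization controls or without 0 d replicate 3 (−0.23) or FPX 2 d replicate 1 (−0.22). Of 9 ubiquitin-conjugating enzymes 5 rose and 1 fell, near the 44.6% and 28.1% of all probe sets, and 3 rose and 2 fell with array medians set to 0. The largest of these rises was that of UBC20 (1.34), which is known from mitosis. Of 4 subtilases 3 fell, among them SBT4.12 (−1.86), and of 11 serine carboxypeptidase-like genes 6 rose and 2 fell, also near the shares of all probe sets, with 4 each way with array medians set to 0. Among the latter scpl20 rose by 1.85.

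The cytoskeleton split by isoform. Of 4 beta-tubulin genes 3 fell and 1 rose, beside 28.1% and 44.6% of all probe sets. TUB1 (AT1G75780) had signals of 1327, 1416 and 1256 at 0 d and 419.7, 336 and 360.5 at 2 d (−1.80 ± 0.11), and TUB7 (AT2G29550) had 967, 1007 and 958 at 0 d and 1939, 2279.9 and 1730.2 at 2 d (1.0 ± 0.11). Every treated array was below the untreated ones for TUB1 and above them for TUB7. TUB5 changed by −0.68 and TUB6, a gene often used as a reference, by −0.39. The other reference gene of the list, GAPC2, did not pass (−0.19), and it fell with array medians set to 0. Of 7 genes under the name TRM 5 rose and 1 fell, against the same shares of all probe sets. TRM28 (1.09), TRM19 (1.02) and TRM22 (0.98) belong to a family linked to the microtubule arrays that set the division plane, and TRM82 (1.18) carries the name of a transfer RNA methylase subunit, an unrelated gene. NET1A and NET1B, actin-binding proteins, rose by 1.0 and 1.0.

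Markers of seedling parts were few. Both shoot and root genes gave high signals in both groups, which were labelled whole seedlings: the rubisco activase gene RCA (AT2G39730) had a mean of 17009 ± 1155 (SD, n = 3) at 0 d and 14864 ± 172 at 2 d, and PYK10 (AT3G09260), a beta-glucosidase abundant in roots, 13680.1 ± 348 and 11028 ± 264. Of 3 root and ER body genes all 3 fell, NAI1 (−0.85), NAI2 (−0.55) and PYK10 (−0.31), beside 28.1% of all probe sets. There were 2 falls after quantile normalization and on the hybridization controls. STOMAGEN, a leaf peptide that promotes stomata, had signals of 560.2, 509 and 644 at 0 d and 182, 201 and 211 at 2 d (−1.45 ± 0.15), while FMA, a guard cell factor, did not pass (0.05). Of the peptide genes of the vascular stem cell niche CLE44 rose (1.36) and CLE41 fell (−0.79). LHW, a factor of early vascular cells, rose by 1.02, the phloem transporter gene SWEET11 did not pass (−0.20), and the seed oleosin gene OLEO3 changed by −0.58. With array medians set to 0 SWEET11 fell (−0.38).

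Both measured regulators of organ growth fell, TCP15, with signals of 889.7, 839 and 734 at 0 d and 245, 215 and 178 at 2 d (−1.88 ± 0.14), and ARL (−0.73). No marker of root hairs or of the epidermis and cuticle was measured under a name. Developmental regulators outside the lists that rose were SHI (1.27), known from auxin synthesis in young organs, PHV (0.97), which sets the upper side of leaves, and POL (1.17), a phosphatase of stem cell signalling. Of 5 RALF-like peptide genes 3 fell and 0 rose, beside 28.1% and 44.6% of all probe sets, with RALFL22 at −1.10.

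Genes that lie next to each other were compared by their order in the TAIR10.1 assembly. Of 1391 adjacent pairs with both genes measured, both changed in 724, and in 394 of these (54.4%) they moved the same way, so neighbours as a whole moved together little more often than apart. Both changed at least 2-fold in 28 pairs, of which 10 rose together, 11 fell together and 7 went apart. Of all probe sets 72.7% changed, and at least 2-fold 9.24% rose and 4.94% fell. Whether the pair counts exceed what such shares give was not tested, so the pairs below are single examples. The longest run was of 3 locus codes, AT1G52050 (−2.52), AT1G52060 (−3.36) and AT1G52070 (−2.07). AT1G52070 had signals of 2454, 2333 and 2169 at 0 d and 776, 334 and 605 at 2 d. Like pairs were AT2G32020 and AT2G32030 (−2.33 and −2.30), AT1G19530 and AT1G19540 (−3.04 and −2.16), MSRB5 with MSRB6, and BGLU45 with BGLU46. Neighbours with like sequence can share hybridization on an array, and that was not tested.

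Pairs that rose together were AT2G18360 and AT2G18370 (1.65 and 1.68), AT4G15680 and AT4G15690 (1.46 and 1.42) and AT1G67865 and AT1G67870 (2.47 and 1.44). Neighbours that went apart included AT2G43590, with signals of 608, 422 and 634 at 0 d and 1479.8, 1559 and 1430.5 at 2 d (1.42 ± 0.19), and AT2G43600, with 164, 218 and 178 at 0 d and 57.8, 47.6 and 60.7 at 2 d (−1.50 ± 0.12). In both genes the groups did not overlap.

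**Figure D5:**
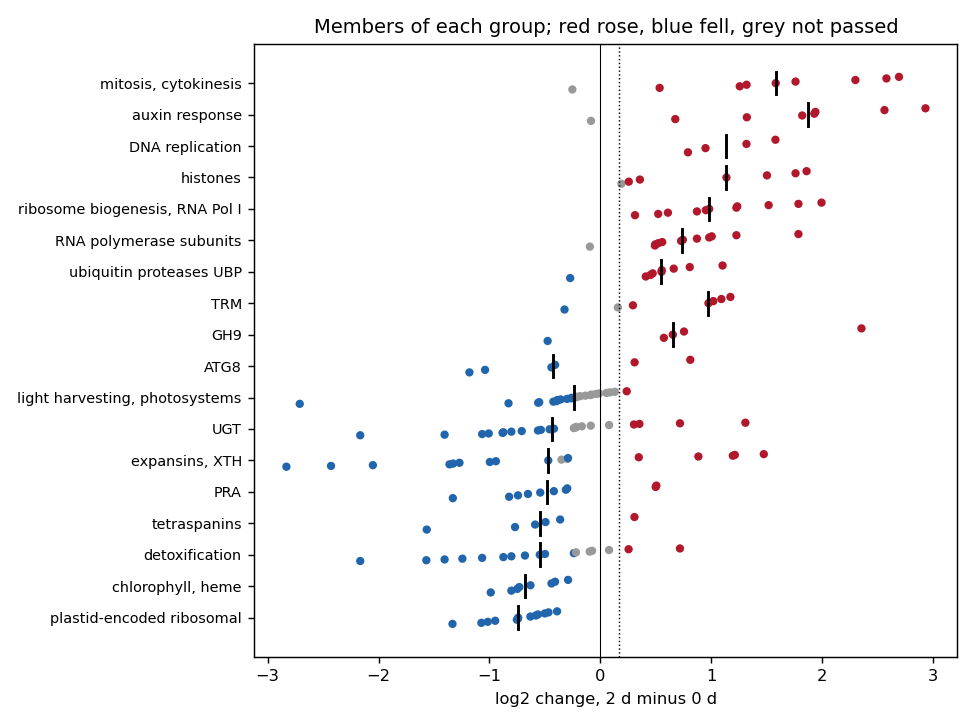
Log2 change of each measured member of the gene groups (2 d minus 0 d, horizontal axis), with red for rises, blue for falls and grey for members that did not pass, and a black bar at each group's median. The dotted line is the median of all probe sets, 0.17. In the 18 groups drawn, medians run from 1.88 for auxin response to −0.74 for plastid-encoded ribosomal proteins.

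Among the 35 genes with more than 1 probe set, 1 gene, AT1G79990, had probe sets with opposite calls (0.29 and −0.28). The rise did not pass without 0 d replicate 1 (0.23) or FPX 2 d replicate 3 (0.25), the fall not without FPX 2 d replicate 1 (−0.24). The largest difference between probe sets of a gene was 0.57. Of the probe sets with no listed gene, 5025 in number, 2203 rose (43.8%) and 1499 fell (29.8%), near the 44.6% and 28.1% of all probe sets. They held the largest rise of the whole table, 4.69, and a fall of −3.93, at probe sets that stay unnamed here.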

How the data were processed

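The samples were Affymetrix arrays of seedling RNA, 3 per group, of which the 0 d and 2 d groups are compared here and the 8 d group lent its spread to the fit. The authors deposited 1 table of array intensity, made with MAS5 (version not stated) per the submitters' processing notes. Per the labels both Cy3 and biotinylated cRNA were involved. Which was read, and how arrays were scaled to each other, is not stated. These deposited intensities were linear and positive, with a 75th percentile per array from 1046 to 1103. Detection calls were not used, so how far a signal stood above background is unknown, and precision is limited by having 3 arrays a group.

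The values were analysed as log2(signal + 16) of the deposited intensity, with no further scaling and no filter. After removal of 21 Affymetrix controls, limma 3.58.1 (R 4.3.3) fitted 1 mean per group over 9 arrays, with 6 residual and 5.24 prior degrees of freedom, with lmFit and eBayes, and tested 2 d minus 0 d two-sided, with Benjamini-Hochberg adjustment over 11228 probe sets and a threshold of 0.05. Gene names came from the platform annotation and the RefSeq gene table (TAIR10.1): 5981 had 1 gene, of which 5962 matched by identifier, 222 had several genes and 5025 were not listed. Probe sets of 1 gene were kept apart.

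The members of the lists and the rules were chosen with earlier results of these data known. The rule for named genes took, among probe sets of 1 gene that passed, did not overlap between groups and had a mean signal in the higher group above 482, the 20 largest rises and falls, up to 5 members of each list or family that passed (the 2 largest differences where none did) and the reference genes. For the 20 largest, probe sets with identifiers ending in _x_at, _s_at or _f_at were left out. Families were gene names with a shared stem and 4 or more measured members. Lists were described by counts and medians only. Alternatives were other pseudocounts, a filter on dim probe sets, 3 other scalings, a fit of the 6 arrays alone, an intensity trend, the replicate number as a block and each array left out. On the deviations from the group means, arrays with the same number correlated at 0.019, 0.043 and 0.012, so the numbers were not taken to pair the arrays. The fit was also run on simulated data with few changed probe sets and independent noise. Most probe sets changed here, so that run does not bear on scaling or on the selection of the table. Python 3.11.15, pandas 2.3.3, NumPy 2.4.6 and matplotlib 3.10.9 were used.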

Additional observations from a re-analysis of the deposited data

How the results depend on the processing

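Each result was recomputed with pseudocounts of 1 and 64, without the dimmest probe sets (8421 left), in 3 other scalings, on the 6 arrays alone, with an intensity trend, with a block and without each array. The share of rises among changes was 61.3%, and 46.3% with array medians set to 0 and 51.1% after quantile normalization. Without the dimmest probe sets fewer members were tested, and the rises were 2 in DNA replication, 5 in mitosis and cytokinesis and 5 among UBP genes, with 6 falls among expansins and xyloglucan enzymes. With array medians set to 0 all 6 carbon fixation genes and 17 light harvesting genes fell, and after quantile normalization 5 light harvesting genes fell. There LHCB4.1 turned from a fall to 0.0024, with no pass. Of the 273 probe sets of named genes no other changed sign in any alternative together with its call. Beside LHCB4.1, 18 lost their call after quantile normalization, 10 with array medians set to 0 and 11 on the hybridization controls, while 0 did with either pseudocount. A call was gained by 5, 12 and 2 in the same order of scalings, and by 2 with a pseudocount of 64.

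Without 1 array, 7496 to 7773 probe sets changed, 4617 to 4804 up and 2870 to 2980 down, with 61.6 to 61.9% up. The rises were 7 in auxin response, 4 in DNA replication, 8 in mitosis, 11 among RNA polymerase subunits, 11 in ribosome biogenesis and 8 among UBP genes in every such fit, 5 to 7 among histones and 4 to 5 among TRM genes. The falls were 37 to 42 among plastid-encoded genes, 13 among those of the plastid ribosome, 6 to 7 in chlorophyll and heme, 10 to 13 in light harvesting, 3 to 4 in carbon fixation, 9 to 10 in expansins and xyloglucan enzymes, 6 in wall synthesis, 9 to 11 in detoxification, 12 to 14 among UGT, 4 to 5 among tetraspanin, 7 to 8 among PRA and 4 among ATG8 genes.

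With the replicate number as a block 8115 probe sets changed, 4973 up and 3142 down (61.3% up), and no named gene changed its call. The numbers are not stated to pair arrays. Each treated array's deviations correlated best with those of the untreated array of its own number. These correlations were only 0.019, 0.043 and 0.012, too close to 0 to settle whether arrays are paired.

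Treatment, age and array set cannot be told apart. The table was selected for differing between groups, so a list shows those members that differ and were named.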
